A study of Homo sapiens with 6 samples.

Results

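The genes described here make and run the lysosome, the acidic compartment in which cells break down proteins, lipids and sugars, and the autophagy machinery that delivers a cell's own contents to it. Their names come from a list of 49 genes in 6 role groups: the TFEB family regulators, the cathepsins, other lysosomal hydrolases, lysosomal membrane proteins, subunits of the proton pump, and the core and receptors of autophagy. A gene was represented by the probe set with the highest mean over the arrays among those annotated to its symbol alone. Of the 49 genes, 48 had such a probe set and all 48 passed the filter on dim signal, out of 12381 genes tested in the whole series. The remaining gene, GLB1 for beta-galactosidase, shares its probe set with TMPPE in the annotation and has no value here.

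The cells were U251, an established line from a human glioma, and each array holds RNA of 1 culture. In the aligned group, 3 cultures were plated on electrospun poly-caprolactone nanofibers that run in parallel. In the random group, 3 cultures were plated on nanofibers of the same polymer without a common direction. Both groups stayed on the fibers for 24 h in medium with 10% serum and received no other treatment, so the comparison is between 2 fiber layouts, in 1 cell line, with no culture off fibers. The cultures are described as independent.

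Lysosomal genes are switched on together by TFEB, TFE3 and MITF, which sit at the lysosome when nutrients are plentiful and move to the nucleus when they are scarce. Autophagy starts with the ULK1 kinase and a lipid kinase complex around BECN1. ATG7 then activates ATG12 and the LC3 and GABARAP proteins, which are joined to the growing membrane and hold cargo receptors, before the vesicle fuses with the lysosome. In glioma, cathepsins are also known as secreted proteases of the invading edge.

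Values are log2 signals as deposited. Each difference is aligned minus random, with its standard error (SE) from limma in a fit that does not pair the arrays. A log2 difference of 1 would be a doubling. Signals of different probe sets are not set against each other, since probes differ in how strongly they bind. The RNA is of whole cultures, so fewer cells of a kind and less RNA per cell cannot be told apart.

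One array stood apart. Aligned 3 lay at 31.6 on a first principal component that held 62.0% of the variance over all genes, while the other 5 arrays lay between -11.7 and 6.33. It was the highest of the 6 arrays in 23 of the 48 lysosomal and autophagy genes (47.9%, against 33.5% of all genes) and the lowest in 10 (20.8%, against 26.5%). Without it the difference changed sign in 12 of the 48 genes (25%, against 15.3% of all genes), and these moves are given with the genes. Of 10 astrocytic and glioma markers 7 passed the filter, while S100B, AQP4 and ALDH1L1 did not. All 7 differences were below 0, where 5879 of all 12381 genes were below 0. They ran from -0.09 ± 0.07 for VIM, which stayed between 14.06 and 14.26, to -0.90 ± 0.44 for FABP7. FABP7, a lipid carrier of radial glia, read 12.36, 11.86 and 10.39 on aligned and 12.50, 12.45 and 12.35 on random fibers. GFAP read 5.80, 4.87 and 5.00 on aligned and 6.65, 6.20 and 5.24 on random fibers, a difference of -0.81 ± 0.38. Its groups overlapped, and aligned 2, aligned 3 and random 3 lay below the median of their array. SOX9 differed by -0.53 ± 0.18, with all aligned arrays below all random ones, and NES by -0.24 ± 0.16. All adjusted p of these markers were at least 0.463 in limma. Without aligned 3 these 4 genes differed by -0.32 for FABP7, -0.69 for GFAP, -0.31 for SOX9 and -0.09 for NES. The summed signal of the 10 markers was 14.8 to 15.2 on aligned and 15.1 to 15.3 on random fibers on the log2 scale. This sum joins probe sets that bind unequally. VIM is its largest term, so it says little about the dimmer markers. Of 10 macrophage and microglia markers, cells rich in lysosomes, only AIF1 passed the filter. AIF1 read 6.01, 5.82 and 5.95 on aligned and 5.74, 5.90 and 5.63 on random fibers, where array medians were 5.63 to 5.66. The summed signal of the 10 was 8.15 to 8.22 on aligned and 8.01 to 8.15 on random fibers. It adds up dim values and does not show such cells in either group. PTPRC, ITGAM, CSF1R and CD14 stayed below the filter. The part of either marker list in the results was not tested.

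Lysosomal and autophagy transcripts differed little between the substrates. The median log2 difference of the 48 genes was 0.01, as was that of all 12381 genes, with 25 genes above 0 and 23 below. The values ran from -0.21 for LAMP2 to 0.36 for ATG7, and 0 of 48 genes differed by 1.5-fold or more, where 2.27% of all genes did. The absolute difference was under 0.1 in 30 of 48 genes (62.5%, against 50.6% of all genes) and under 0.2 in 45 (93.8%, against 79.0%).

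No gene of the set passed the test. At an adjusted p under 0.05 (limma with Benjamini-Hochberg adjustment over all genes) 0 of 48 were called, with 0.0% called among all genes and a lowest adjusted p of 0.463. At an unadjusted p under 0.05, 1 of 48 was higher on aligned fibers (2.08%, against 4.72% of all genes) and 1 was lower (2.08%, against 5.81%). These were ATG7 and GABARAP, and both shares lay below those of all genes. When the fit took the replicate number as a block, 3 genes were lower at that level, GABARAP, LAMP2 and SMPD1, the higher gene was again ATG7, and the lowest adjusted p was 0.362. In both directions together the block gave 4 of 48 (8.33%), against 13.6% of all genes, where the fit without it gave 2 of 48 (4.17%), against 10.5%.

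The 95% confidence interval lay wholly within 1.5-fold in either direction for 45 of 48 genes (93.8%, against 87.3% of all genes). The 3 genes whose interval reached past 1.5-fold were CTSB, with -0.12 to 0.77, ATG7, with 0.10 to 0.62, and WIPI1, with -0.25 to 0.61. The median SE was 0.093 without the block, against 0.095 over all genes, and 0.075 with it, as over all genes.

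**Figure D1:**
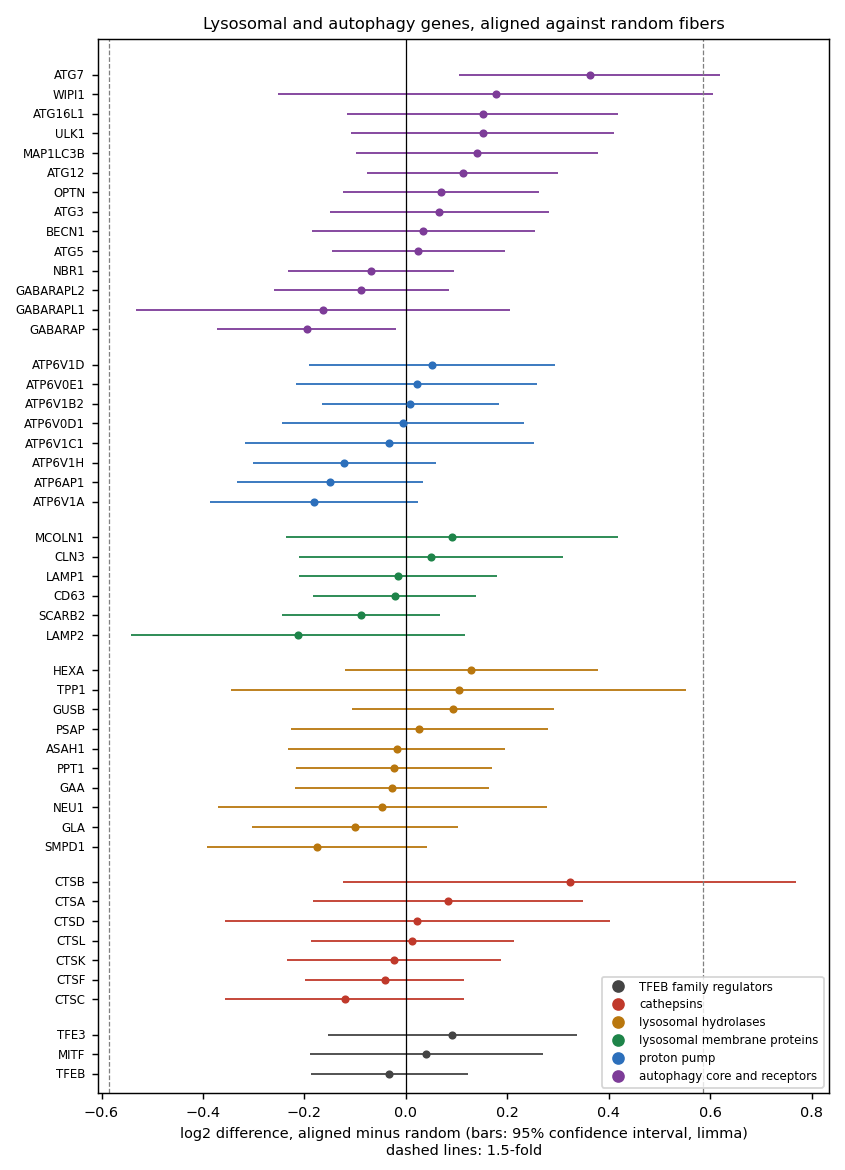
Log2 difference, aligned minus random (x axis), of the 48 genes in 6 role groups, with 95% confidence intervals from limma and dashed lines at 1.5-fold. Points lie between -0.21 and 0.36, and the intervals of CTSB, ATG7 and WIPI1 cross the right dashed line.

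The transcripts of the master regulators were nearly level. TFEB read 7.21, 7.22 and 7.18 on aligned 1, 2 and 3 and 7.22, 7.28 and 7.21 on random 1, 2 and 3, a difference of -0.03 ± 0.07. All 6 arrays thus lay close together and the groups overlapped. TFE3, its close relative, read 9.13, 9.11 and 9.44 on aligned and 9.09, 9.11 and 9.20 on random fibers. Aligned 3 alone was high, and the difference of 0.09 ± 0.11 was -0.02 without it. MITF, the third family member and best known from pigment cells, differed by 0.04 ± 0.10, and its other kept probe set by -0.07 ± 0.10. These proteins are regulated chiefly by where they are in the cell, which RNA does not record.

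TFEB family proteins bind a promoter sequence known as the CLEAR element, whose core was looked for near the start of these genes. RefSeq windows (GRCh38.p14) from 250 bases before to 50 bases after the start of transcription were at hand for 38 of the 49 genes. The element's core TCACGTGA reads the same on both strands and contains the shorter E-box CACGTG. The core occurred in 7 of 38 genes (18.4%), against 2.31% of the tested genes with a window and 1.18% of all genes with one. CACGTG occurred in 11 of 38 (28.9%), against 12.9% of tested genes and 8.77% of all genes with a window. Shown are the stretches around 5 of the cores that lie wholly before the start, 1 core for each gene shown. They let a reader see the element in the minority of these promoters that hold it. The core is in capitals, and each stretch is written on the strand of the gene.
ATP6V0D1, chr16:67481190-67481237, minus strand: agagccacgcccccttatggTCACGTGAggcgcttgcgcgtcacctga
LAMP1, chr13:113297190-113297237, plus strand: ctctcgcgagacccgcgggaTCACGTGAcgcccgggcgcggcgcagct
GAA, chr17:80101484-80101531, plus strand: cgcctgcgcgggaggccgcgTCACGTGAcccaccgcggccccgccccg
MCOLN1, chr19:7522562-7522609, plus strand: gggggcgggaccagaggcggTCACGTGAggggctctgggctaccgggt
CTSA, chr20:45891289-45891334, plus strand: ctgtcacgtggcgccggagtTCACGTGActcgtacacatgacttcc

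These cores begin 60 bases before the start in ATP6V0D1, 29 in LAMP1, 77 in GAA, 42 in MCOLN1 and 26 in CTSA. GAA and MCOLN1 hold a further core wholly before the start, beginning 32 and 15 bases before it. LAMP1 holds a further core that begins 2 bases before the start and runs across it. The other genes with a core in the window were ATG3 and CLN3. The 7 genes differed between substrates by -0.03 to 0.09 with a median of 0.05, and the 30 measured genes with a window and no such core by -0.20 to 0.36 with a median of 0.02. A match of letters is a description and not a bound site.

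Among the cathepsins, the proteases of the lysosome, CTSB had the largest difference. CTSB read 10.83, 11.02 and 11.64 on aligned 1, 2 and 3 and 10.86, 10.82 and 10.84 on random 1, 2 and 3. The random arrays were within 0.05 of each other, aligned 1 lay among them, and aligned 3 was far above the rest. The difference was 0.32 ± 0.19 (limma, adjusted p = 0.531), and 0.08 without aligned 3. All 5 kept probe sets of CTSB pointed the same way, with differences of 0.21 to 0.38, but without aligned 3 they ran from -0.07 to 0.11.

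Probe sets of CTSC, which activates the granule proteases of immune cells, went apart. The probe set that stands for CTSC read 10.57, 10.47 and 10.24 on aligned and 10.51, 10.50 and 10.62 on random fibers, a difference of -0.12 ± 0.10 that was -0.03 without aligned 3. Its 3 other kept probe sets gave 0.33 ± 0.09, 0.13 ± 0.09 and 0.10 ± 0.08. The first of these read 8.82, 9.03 and 9.09 on aligned and 8.67, 8.67 and 8.62 on random fibers, so that the groups did not overlap (limma over probe sets, adjusted p = 0.506). The second did not overlap either, with 9.76, 9.68 and 9.68 on aligned and 9.61, 9.45 and 9.67 on random fibers, while the last one did. Without aligned 3 these 3 probe sets gave 0.27, 0.14 and 0.07. CTSC thus has no single direction in these data.

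The 5 other cathepsins were between -0.04 and 0.08. CTSD, the main aspartic protease, read 8.93, 8.61 and 9.13 on aligned and 9.12, 8.65 and 8.84 on random fibers, a difference of 0.02 ± 0.16. Without aligned 3 the difference was -0.10. The arrays of CTSD spread widely in both groups, and the array numbered 2 was the lowest in each. CTSL, a cysteine protease, differed by 0.01 ± 0.09 with overlapping groups, and by -0.03 without aligned 3. CTSA, which protects beta-galactosidase and neuraminidase, differed by 0.08 ± 0.11, and by -0.03 without aligned 3. CTSF differed by -0.04 ± 0.07 and CTSK, the collagen-degrading protease of bone-resorbing cells, by -0.02 ± 0.09. Without aligned 3 CTSK was at 0.06.

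The other hydrolases had 4 differences above 0 and 6 below, with a median of -0.02. SMPD1 encodes acid sphingomyelinase, which cuts sphingomyelin to ceramide. SMPD1 read 8.26, 8.10 and 8.34 on aligned and 8.49, 8.29 and 8.43 on random fibers. Each aligned array was below the random array of its number, although the groups overlapped. The difference was -0.17 ± 0.09 (limma, adjusted p = 0.501), -0.23 without aligned 3, and in limma with the replicate block it had an adjusted p of 0.362. Its 2 other kept probe sets were also lower, by -0.25 ± 0.12 and -0.05 ± 0.09.

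HEXA, the alpha chain of the enzyme that is missing in Tay-Sachs disease, read 9.15 on both arrays numbered 1, 9.02 on both numbered 2 and 9.39 on aligned 3, which stood alone, while random 3 was the lowest array. The difference of 0.13 ± 0.11 came to 0.03 without aligned 3. The other kept probe sets of HEXA went the other way, with -0.08 ± 0.09 and -0.03 ± 0.09. PSAP, the precursor of the saposins that present lipids to these enzymes, differed by 0.03 ± 0.11, and by -0.02 without aligned 3. TPP1, a peptidase lost in a childhood neuronal storage disease, read 8.22, 8.45 and 9.04 on aligned and 8.51, 8.47 and 8.41 on random fibers. Its aligned arrays lay on both sides of the random ones, and its difference of 0.10 ± 0.19 was -0.13 without aligned 3. The other kept probe sets of TPP1 had both signs, with 0.15 ± 0.15, -0.03 ± 0.14 and -0.12 ± 0.08. In the last of these all aligned arrays were below all random ones. The others were GUSB at 0.09, or 0.03 without aligned 3, ASAH1 at -0.02, PPT1 at -0.02, GAA at -0.03, NEU1 at -0.05 and GLA at -0.10.

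**Figure D2:**
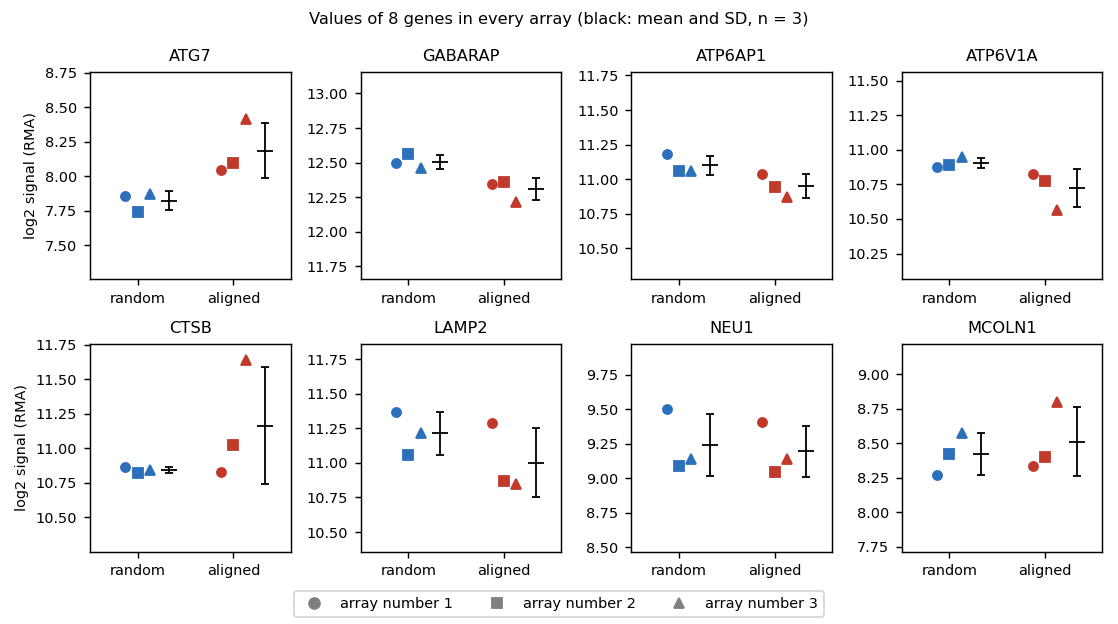
Log2 signal (y axis) of 8 genes in each array by substrate, with the array number as the symbol and the mean and SD (n = 3) in black; every panel spans the same log2 range. ATG7 is higher and GABARAP, ATP6AP1 and ATP6V1A are lower on all 3 aligned arrays than on any random array, CTSB is set apart by aligned 3, and NEU1 and LAMP2 are high on array 1 of both groups.

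LAMP2, a heavily glycosylated protein that lines the lysosome and takes part in fusion with autophagosomes, had the lowest difference of the set. LAMP2 read 11.29, 10.87 and 10.85 on aligned 1, 2 and 3 and 11.37, 11.06 and 11.22 on random 1, 2 and 3, a difference of -0.21 ± 0.14 (limma, adjusted p = 0.560). Aligned 1 lay inside the random range and the 2 other aligned arrays below it, and the difference without aligned 3 was -0.13. In the fit with the replicate block LAMP2 had an adjusted p of 0.362 in limma.

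The 3 other probe sets of LAMP2 were lower as well. The first of them read 10.90, 10.70 and 10.57 on aligned and 11.06, 10.95 and 10.98 on random fibers, a difference of -0.27 ± 0.10 (limma over probe sets, adjusted p = 0.507). The second read 9.43, 9.24 and 8.92 on aligned and 9.47, 9.74 and 9.73 on random fibers, a difference of -0.45 ± 0.14 (limma over probe sets, adjusted p = 0.506). In these 2 every aligned array was below every random array and the unadjusted p was under 0.05. The last one gave -0.29 ± 0.14. Without aligned 3 the 4 differences ran from -0.32 to -0.13.

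LAMP1, the companion glycoprotein of LAMP2, differed by -0.02 ± 0.08, and its 3 other probe sets by 0.15, 0.08 and 0.00. SCARB2, which carries the enzyme glucocerebrosidase to lysosomes, read 10.93, 10.92 and 10.88 on aligned and 11.01, 11.03 and 10.96 on random fibers. Its groups did not overlap, but the gap was small and the difference was -0.09 ± 0.07 (limma, adjusted p = 0.606). The other kept probe sets of SCARB2 overlapped between the groups, with differences of -0.14, -0.06 and -0.04. Without aligned 3 these were -0.12, 0.01 and 0.05. CD63, a tetraspanin of late endosomes and exosomes, stayed between 11.68 and 11.79 on all arrays, with a difference of -0.02 ± 0.07. MCOLN1, the calcium channel of the lysosome, and CLN3, a protein of a neuronal storage disease, differed by 0.09 ± 0.14 and 0.05 ± 0.11, and both by -0.05 without aligned 3.

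The proton pump acidifies the lysosome with a ring of V1 subunits that split ATP and a V0 part that lets protons through the membrane. Of its 8 measured genes 3 were above 0 and 5 below, with a median of -0.02. ATP6V1A, the catalytic subunit, read 10.83, 10.78 and 10.57 on aligned and 10.88, 10.89 and 10.95 on random fibers. All aligned arrays were below all random ones, by little for aligned 1, and the difference of -0.18 ± 0.09 (limma, adjusted p = 0.486) was -0.10 without aligned 3. The other kept probe set of ATP6V1A overlapped between the groups, with a difference of -0.20 ± 0.14 that was -0.04 without aligned 3. ATP6AP1, an accessory subunit needed for assembly, read 11.04, 10.95 and 10.87 on aligned and 11.18, 11.06 and 11.06 on random fibers. The groups of ATP6AP1 did not overlap, with a difference of -0.15 ± 0.08 (limma, adjusted p = 0.497) and of -0.11 without aligned 3.

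The other pump genes differed less. ATP6V0E1, a small membrane subunit, read 12.06, 11.90 and 12.21 on aligned and 12.11, 11.92 and 12.09 on random fibers, and the difference was 0.02 ± 0.10. ATP6V1H, a regulatory subunit, differed by -0.12 ± 0.08, ATP6V1C1 by -0.03 ± 0.12, ATP6V0D1 by -0.01 ± 0.10, ATP6V1B2 by 0.01 ± 0.07 and ATP6V1D by 0.05 ± 0.10. Without aligned 3 ATP6V0E1 was at -0.06 and ATP6V1D at -0.02.

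The autophagy genes were the group with the most values above 0, 10 of 14, where 6502 of all 12381 genes were above 0. Their median was 0.07, and 0.04 without aligned 3. The 30 tested autophagy genes outside the list did not share this, with 13 above 0, 17 below and a median of -0.03. ATG7, the activating enzyme for both ubiquitin-like conjugations of autophagy, had the largest difference of the 48 genes. ATG7 read 8.05, 8.10 and 8.41 on aligned 1, 2 and 3 and 7.86, 7.74 and 7.87 on random 1, 2 and 3. Every aligned array was above every random one, with aligned 3 the highest. The difference was 0.36 ± 0.11, or 1.29-fold (limma, adjusted p = 0.463), and 0.25 without aligned 3.

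The other probe sets of ATG7 gave smaller values. The second probe set read 7.74, 7.69 and 7.96 on aligned and 7.63, 7.54 and 7.52 on random fibers, again without overlap, a difference of 0.23 ± 0.09 (limma over probe sets, adjusted p = 0.513). The last one read 6.65, 6.90 and 7.18 on aligned and 6.72, 6.78 and 6.83 on random fibers, with overlap and a difference of 0.13 ± 0.13 that was 0.00 without aligned 3. ATG7 is the only one of the 48 genes whose aligned arrays were all above the random arrays (2.08%, against 8.71% of all genes).

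GABARAP, the ubiquitin-like protein joined to the membrane of autophagosomes, read 12.35, 12.36 and 12.22 on aligned and 12.49, 12.56 and 12.46 on random fibers. All aligned arrays were below all random arrays. The difference was -0.20 ± 0.08, or 1.15-fold lower (limma, adjusted p = 0.472), with a 95% confidence interval of -0.37 to -0.02, and it was -0.15 without aligned 3. Its relatives in the same family were lower too but overlapped or nearly so. GABARAPL2 read 11.19, 11.14 and 11.19 on aligned and 11.21, 11.22 and 11.36 on random fibers, with a narrow gap and a difference of -0.09 ± 0.07. GABARAPL1 read 7.28, 6.88 and 6.99 on aligned and 7.37, 6.90 and 7.37 on random fibers, a difference of -0.16 ± 0.16, and its second probe set gave -0.29 ± 0.15. In all, 5 of 48 genes had every aligned array below every random array, SCARB2, ATP6AP1, ATP6V1A, GABARAP and GABARAPL2 (10.4%, against 9.33% of all genes).

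MAP1LC3B, the LC3 protein used as the usual marker of autophagosomes, had a difference above 0, where the GABARAP genes had differences below 0. MAP1LC3B read 10.45, 10.43 and 10.62 on aligned and 10.52, 10.21 and 10.35 on random fibers, with overlap and a difference of 0.14 ± 0.10 (limma, adjusted p = 0.596). Its difference was 0.08 without aligned 3 and 0.06 without random 2. Whether MAP1LC3B and GABARAP differ from each other in their response was not tested. ULK1, the kinase that starts autophagy, read 7.14, 7.19 and 7.39 on aligned and 7.22, 6.90 and 7.15 on random fibers, a difference of 0.15 ± 0.11 that was 0.08 without aligned 3. The groups overlapped, and random 2 was the lowest of the 6 arrays.

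The remaining autophagy genes lay between -0.07 and 0.18. WIPI1, which reads the lipid signal on the forming membrane, read 8.40, 7.92 and 8.32 on aligned and 8.38, 7.96 and 7.77 on random fibers, a difference of 0.18 ± 0.18. Random 3 was its lowest array and both arrays numbered 1 were high. ATG16L1, ATG12, ATG5 and ATG3, which form or assist the conjugating enzymes, differed by 0.15, 0.11, 0.02 and 0.07, and BECN1 by 0.03. The cargo receptors OPTN and NBR1 differed by 0.07 and -0.07. Without aligned 3, ATG16L1 was at 0.07, ATG3 and OPTN at 0.01 and BECN1 at -0.03. The other kept probe set of OPTN went the other way, with a difference of -0.10 ± 0.09.

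**Figure D3:**
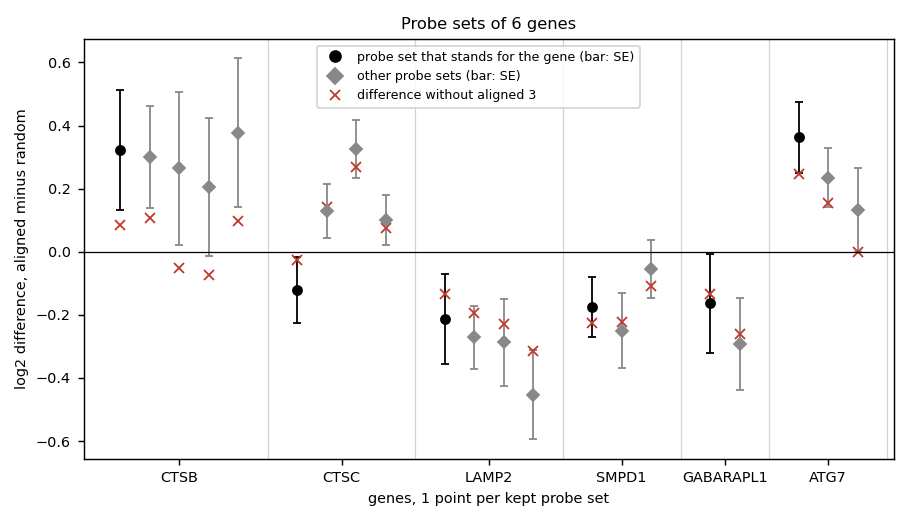
Log2 difference, aligned minus random (y axis), for each kept probe set of 6 genes, with SE bars and crosses for the value without aligned 3. All probe sets of CTSB and ATG7 lie above 0 and all of LAMP2, SMPD1 and GABARAPL1 below, those of CTSC lie on both sides, and without aligned 3 the CTSB values run from -0.07 to 0.11.

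Probe sets of 1 gene are not replicates of a condition, but they show how far the choice of probes matters. The 48 genes had 119 probe sets of their own, of which 103 passed the filter. At an unadjusted p under 0.05, 3 of 103 were higher (2.91%, against 3.86% of all kept probe sets), 2 of ATG7 and 1 of CTSC. Another 3 of 103 were lower (2.91%, against 5.83%), 1 of GABARAP and 2 of LAMP2. Of 27 genes with several kept probe sets, 16 had all differences on 1 side of 0 and 11 had both signs.

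Some of these genes followed the array number in both groups. The labels number the cultures 1 to 3 in each group without saying what a number shares. In 21 of 48 genes both arrays of a number lay above or below the 4 others (43.8%, against 42.4% of all genes), so the share was close to that of all genes. NEU1, a sialidase, is an example. It read 9.40 and 9.50 on aligned 1 and random 1, 9.05 and 9.09 on the arrays numbered 2, and 9.14 on both arrays numbered 3. Both arrays numbered 1 were above the 4 others in 5 genes, MITF, NEU1, LAMP2, ATG12 and WIPI1 (10.4%, against 9.85% of all genes).

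The arrays numbered 1 were below the 4 others in 6 genes, CLN3, MCOLN1, ATP6V0D1, ATP6V1D, BECN1 and ATG3 (12.5%, against 16.6%). In the same 6 genes both arrays numbered 3 were above the 4 others, a combination found in 5.48% of all genes. Arrays numbered 3 were above the others in 3 further genes, TFE3, CTSL and ATP6V1C1, which makes 9 (18.8%, against 12.6%), and below them in MITF, CTSF and CTSK (6.25%, against 5.42%). Arrays numbered 2 were above the others in TFEB alone (2.08%, against 4.15%) and below them in 5 genes, CTSD, GLA, NEU1, ATP6V0E1 and GABARAPL1 (10.4%, against 5.17%). MCOLN1 read 8.34 and 8.27 on aligned 1 and random 1, 8.40 and 8.42 on the arrays numbered 2, and 8.80 and 8.57 on those numbered 3. The difference within each number had the same sign for all 3 numbers in 16 of 48 genes (33.3%, against 45.2% of all genes).

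Aligned 3 carried most of the larger departures. Measured from the mean of the random arrays, 3 genes departed by more than 0.2 on aligned 1 (6.25%, against 17.0% of all genes). The count was 7 on aligned 2 (14.6%, against 20.3%) and 20 on aligned 3 (41.7%, against 44.3%). Without aligned 3 the median difference of the 48 genes was -0.03. At an unadjusted p under 0.05 the counts were then again 1 higher and 1 lower, ATG7 and SMPD1, together 4.17%, against 6.58% of all genes.

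**Figure D4:**
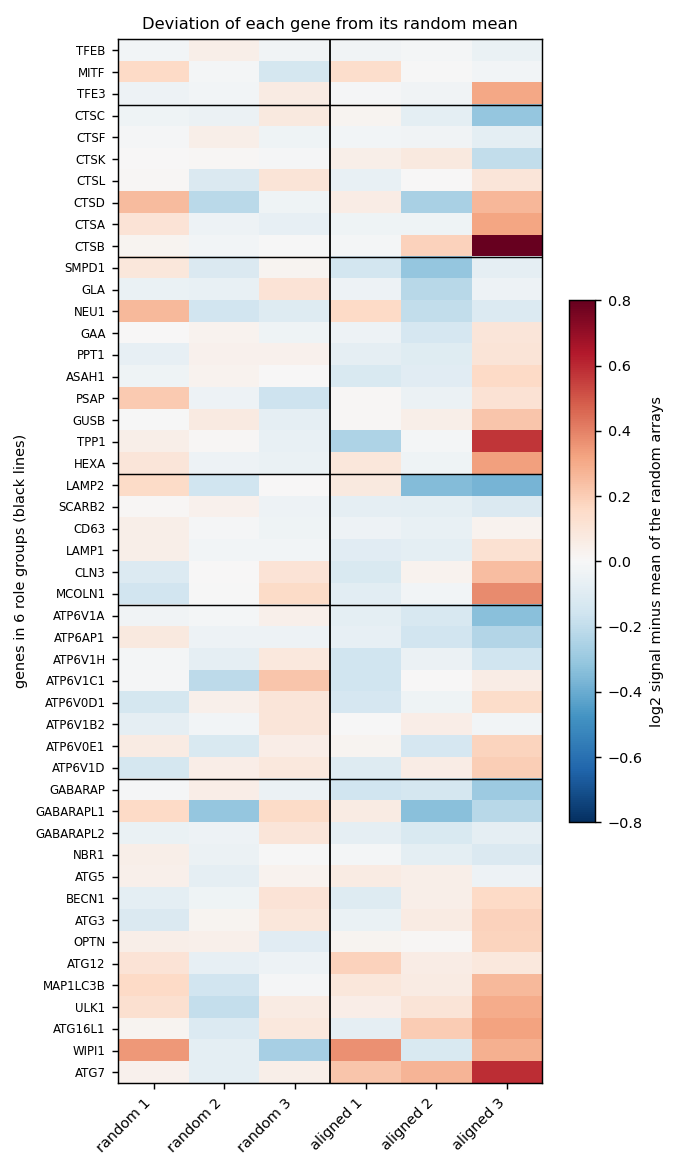
Log2 signal minus the mean of the random arrays (colour) for the 48 genes (y axis, by role group) on each array (x axis). Aligned 3 holds the deepest colours, 20 genes beyond 0.2, against 3 on aligned 1 and 7 on aligned 2. Of all genes tested, 17.0% were beyond 0.2 on aligned 1, 20.3% on aligned 2 and 44.3% on aligned 3.

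Beyond the 48 genes, 152 further genes of the same pathways were listed in 9 groups, from other cathepsins and their cystatin inhibitors to nutrient sensing at the lysosome. Of these, 123 were tested and 0 passed the adjusted threshold in limma. At an unadjusted p under 0.05, 3 were higher on aligned fibers (2.44%, against 4.72% of all genes), NPC1, ATG101 and UVRAG. Another 7 were lower (5.69%, against 5.81%), CTSV, FUCA1, ACP2, ATP6V1G2, BNIP3, BNIP3L and RRAGA. The median difference of the 123 genes was 0.00. Every aligned array was above every random one in 6 of them (4.88%, against 8.71% of all genes). In 12 every aligned array was below every random one (9.76%, against 9.33%). The 8 genes described next were chosen for the smallest unadjusted p, which favours groups without overlap.

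NPC1 exports cholesterol from the lysosome, and it read 8.85, 8.85 and 9.15 on aligned and 8.74, 8.55 and 8.52 on random fibers, a difference of 0.35 ± 0.11 (limma, adjusted p = 0.463). UVRAG, a partner of BECN1, read 7.67, 7.77 and 7.70 on aligned and 7.51, 7.46 and 7.59 on random fibers, a difference of 0.19 ± 0.07. In both genes every aligned array was above every random one, and without aligned 3 they differed by 0.25 and 0.20.

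ACP2, the lysosomal acid phosphatase, read 9.06, 8.99 and 8.92 on aligned and 9.25, 9.16 and 9.30 on random fibers, a difference of -0.25 ± 0.08 (limma, adjusted p = 0.463). CTSV, a close relative of CTSL, read 6.60, 6.71 and 6.48 on aligned and 6.76, 6.96 and 7.10 on random fibers, a difference of -0.35 ± 0.11. RRAGA, a GTPase that brings the growth kinase mTORC1 to the lysosome, read 11.47, 11.41 and 11.16 on aligned and 11.60, 11.62 and 11.65 on random fibers, a difference of -0.28 ± 0.09. None of these groups overlapped, and without aligned 3 the differences were -0.21, -0.29 and -0.18. ATP6V1G2, a pump subunit typical of neurons, differed by -0.28 ± 0.09, and by -0.20 without aligned 3.

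BNIP3L and BNIP3, the mitochondrial receptors of autophagy and known hypoxia targets, were lower on aligned fibers at an unadjusted p under 0.05, and BNIP3L had the lowest difference of the 123 genes. BNIP3L read 10.06, 9.84 and 9.19 on aligned and 10.41, 10.37 and 10.27 on random fibers. Its aligned arrays were all below the random ones, aligned 3 by far the most, and its difference of -0.65 ± 0.20 was -0.40 without that array (limma, adjusted p = 0.463). It was the only one of the 123 genes with a difference of 1.5-fold or more (0.813%, against 2.27% of all genes). BNIP3 read 11.85, 11.72 and 11.47 on aligned and 12.09, 12.04 and 11.94 on random fibers, again without overlap, a difference of -0.34 ± 0.11 that was -0.24 without aligned 3.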

How the data were processed

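The authors deposited log2 values, 1 per probe set and array. The submitters' processing notes name RMA, a method that subtracts background, equalises the distributions of the arrays and combines the probes of each set. Its version is not given in the sources used here. Such values compress small signals, and scanner files were not analysed here. Of 54675 probe sets, 62 controls were left out. Of the 54613 remaining, 27621 lay above the median of their array on at least 3 of 6 arrays, and 41091 carry 1 symbol in GEO's annotation, 1801 several and 11721 none. A gene was represented by whichever of its kept probe sets had the highest mean, giving 12381 genes. Aligned minus random was fitted with limma 3.58.1 in R 4.3.3, two-sided, without covariates, with Benjamini-Hochberg adjustment over all genes; the code was tested on simulated data. The number of arrays limits the precision.

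The genes, the lists and the tests were chosen with earlier results of these data known. Named were genes with an unadjusted p under 0.05, the 2 with the smallest p and the 1 with the highest mean in each role group, 9 set by name and 8 further pathway genes by p; others named were chosen after their values were seen. Deviations of equal-numbered arrays correlated by 0.369, 0.322 and 0.109, all over 0.1, so equal numbers count as pairs by that limit, although aligned 2 and random 3 reached 0.188. Printed differences, errors and p-values are those of the unpaired fit unless the block is named. Alternatives were a fit blocked on the number, filters, normalizations, a trended robust prior, the choice of probe set and each array left out in turn. Promoter windows come from RefSeq. Figures were drawn with matplotlib 3.10.9.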

Additional observations from a re-analysis of the deposited data

How the results depend on the processing

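Under all 14 alternatives, 0 of the measured genes of the set passed the adjusted threshold in limma, and their median lay between -0.03 (without aligned 3) and 0.02 and was below 0 in 4 alternatives. The lowest adjusted p of a named gene of the set was 0.132, without aligned 1. The count higher at an unadjusted p under 0.05 was 0 without probe sets of the suffixes _s_at and _x_at, where 32 genes were left, and 1 to 3 with an array left out. The count lower was 2 with the mean of all probe sets (GABARAP and LAMP2), 2 without those suffixes, 3 with the replicate block, and 0 to 3 with an array left out. Without aligned 1 it was 3 in each direction (ATG7, ATG16L1 and CTSB higher, GABARAP, LAMP2 and ATP6V1A lower), together 12.5%, against 20.1% of all genes, and 0 were lower without random 1 or random 2. Of the 123 further pathway genes, 10 in the report became 5 to 16 with an array left out, with 16 (13%, against 20.1% of all genes) without aligned 1, 5 (4.07%, against 5.97%) without random 2 and 6 (4.88%, against 5.04%) without random 3, and 13 (10.6%, against 13.6%) with the replicate block, which changed no call at the adjusted threshold. With the mean of all probe sets MITF was at -0.015, CTSC at 0.11 and LAMP1 at 0.053, and without the suffixes MITF was at -0.070, HEXA at -0.076 and LAMP1 at 0.00014; here other probes were read. With an array left out, TFE3 ran from -0.018 to 0.15, MITF from -0.031 to 0.12, CTSD from -0.099 to 0.16, CTSL from -0.045 to 0.065, PSAP from -0.057 to 0.13, LAMP1 from -0.085 to 0.021 and ATP6V0E1 from -0.056 to 0.099. Of 397 differences of 29 named genes over the alternatives, 20 changed sign and 0 passed the adjusted threshold, and 20 of the genes never changed sign.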

Other observations

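Genes with a TCACGTGA core in the RefSeq window were set beside 1 pattern over the array numbers, which was picked after the values were seen. Of the 7, ATG3, ATP6V0D1, CLN3 and MCOLN1 had both arrays numbered 1 below and both arrays numbered 3 above the rest (57.1%). Of the 30 measured genes of the set with a window and no core, ATP6V1D and BECN1 did (6.67%). Over all tested genes with a window the same pattern was found in 22 of 233 with a core (9.44%) and in 546 of 9851 without one (5.54%). Counting any number whose arrays lay above or below the rest, the shares were 4 of 7 with a core (57.1%) and 13 of 30 without one (43.3%). These are descriptions, and what the array numbers share was not tested.

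S100B, a calcium-binding protein of astrocytes, did not pass the filter and is not among the genes tested. It read 4.97, 4.69 and 4.04 on aligned and 5.73, 5.76 and 5.60 on random fibers. Every aligned array was thus below every random one, as in 9.33% of the genes tested. AQP4 and ALDH1L1, also below the filter, overlapped. AQP4 read 3.11, 3.00 and 3.20 on aligned and 2.96, 3.22 and 3.30 on random fibers. ALDH1L1 read 5.69, 5.29 and 5.58 on aligned and 5.64, 5.66 and 5.33 on random fibers.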
